A study of Mus musculus with 20 samples.

Results

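Cells of the mouse olfactory mucosa that carried the S100a5-tauGFP reporter signal (GFP+) were compared with the cells that did not (GFP-), in mice that had received only filtered air. All samples labelled vehicle were taken, 10 of the 20 samples of the series, and the 2 fractions of a pool were paired by replicate number. Each of the 5 vehicle pools held the mucosa of 3 S100a5-tauGFP mice of both sexes, aged 7 to 12 weeks, so 15 of 30 mice entered. Every mouse of the series carried the reporter and spent 40 h alone in a chamber supplied with clean air at 3.1 L/min. From 26 h on, vehicle mice received a 10 s pulse of filtered air every 20 min. Mice of the 5 odor pools received an odor, artificial cigarette smoke by the sample labels but bourgeonal by the design text of the series. The odor pools enter the estimate of the spread and are otherwise given only beside the vehicle pools. All 22206 probe sets for genes on the Clariom S array were tested, and they measured 19505 distinct genes.

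The name of the comparison, active against inactive neurons, holds only in part for these samples. The labels describe the GFP- fraction only by the absence of GFP, and its arrays held markers of white blood cells, red cell precursors, dividing cells and other cells of the epithelium, with values given below. The fractions are therefore called GFP+ and GFP- throughout. A fraction of a pool is a bulk sample, in which fewer cells of a type and less RNA per cell cannot be told apart.

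An olfactory sensory neuron transcribes 1 allele of 1 odorant receptor gene. An odorant bound by that receptor activates the G protein Golf and adenylyl cyclase 3, and cyclic AMP opens a cation channel whose current is amplified by calcium-gated chloride channels. S100a5 is a small EF-hand calcium-binding protein, and its transcription in these neurons follows their activity. Even without an added odorant, receptors differ in their basal activity, and chamber air, the mouse's own odors and the mechanical effect of breathing can drive neurons. The epithelium also holds sustentacular cells, secretory gland cells, microvillar cells and basal stem cells that renew the neurons.

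Values are log2 signals, 1 array per sample, so a difference of 1 is a 2-fold change of signal. A gene was called where limma's moderated test on the 5 differences GFP+ minus GFP- gave an adjusted p (Benjamini-Hochberg over all 22206 probe sets) under 0.05. The spread was estimated together with the 5 odor pools. The median SE of a change was 0.268. A mean was taken as at background when it did not exceed the mean of the background control medians of its arrays, which lay between 5.19 and 6.34, and a fold change against such a mean is given as "at least", with each value below its array's background raised to it. Medians of lists are over fitted log2 changes, which are not bounds. Both arrays of vehicle replicate 5 had higher median signals (7.03 and 7.40) than the other 8 (6.06 to 6.39). The arrays least like their groups were GFP- replicate 1 (mean correlation 0.895) and GFP- replicate 5 (0.941). The number of arrays limits the precision.

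The reporter gene was higher in the GFP+ fraction. S100a5 signals were 16.36, 17.08, 16.64, 16.25 and 16.66 in GFP+ samples 1 to 5 and 16.07, 14.53, 14.69, 15.82 and 15.38 in the GFP- samples. The groups did not overlap, though pools 1 and 4 differed by only 0.29 and 0.44. S100a5 changed by 1.30 (SE 0.36, adjusted p = 0.0368 by limma), a 2.46-fold rise in a gene that the GFP- cells also held at a high signal. The call was lost without vehicle replicate 2 (0.99), 3 (1.14) or 5 (1.31), on leaving odor replicate 1 or 3 out of the estimated spread (1.30 in both cases), and with quantile normalization (1.26). As the sort was made on this gene's reporter, its change checks the sort and is no finding.

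Olfactory marker protein, Omp, marks mature sensory neurons. Its signals were 19.52, 19.22, 19.60, 19.17 and 18.36 in GFP+ and 18.32, 19.55, 19.20, 19.60 and 18.10 in GFP- samples. These ranges overlap almost fully, and the change was 0.22 (SE 0.23, adjusted p = 0.717 by limma), turning to -0.021 without vehicle replicate 1. Omp lay near the brightest probe set on all 10 arrays, where signals can saturate, so equal amounts are not shown.

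Lcn2, a siderophore-binding protein of neutrophil granules and of secretory epithelium, was the marker on the other side. It measured 7.00, 5.00, 7.10, 7.96 and 7.43 in GFP+ and 17.33, 18.29, 18.81, 18.88 and 17.37 in GFP- samples. The groups lie far apart in every pool, with a change of -11.24 (SE 0.44, adjusted p = 2.53e-09 by limma).

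**Figure D1:**
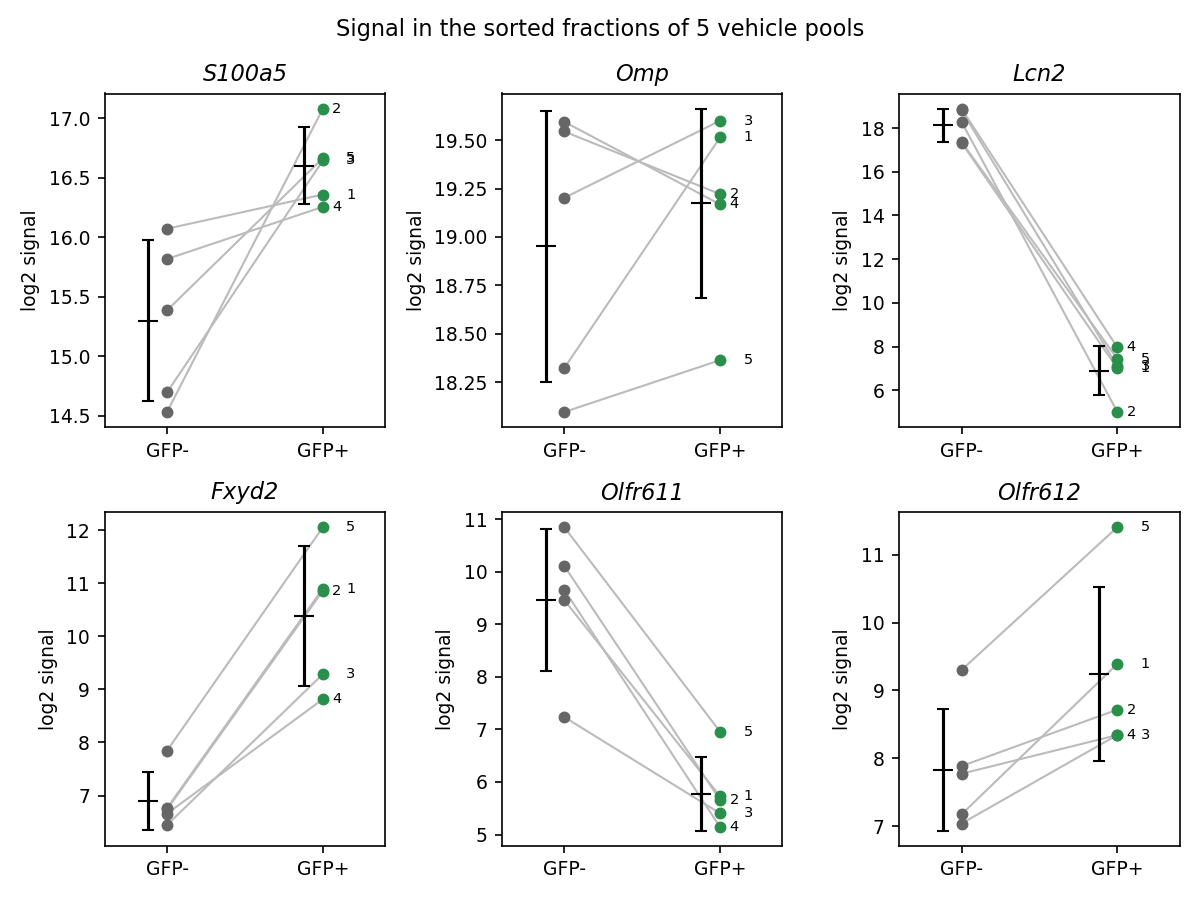
Log2 signal of 6 genes in the GFP- and GFP+ samples of the 5 vehicle pools, with a line joining the 2 fractions of a pool, pool numbers at the right, and bars for the mean ± SD (n = 5). S100a5, Fxyd2 and Olfr612 are higher in GFP+ in 5 of 5 pools, Lcn2 and Olfr611 lower in 5 of 5, and Omp differs in direction between pools; each panel has its own scale, and none starts at 0.

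Of the 22206 probe sets, 2024 (9.11%) were called: 501 (2.26%) were higher and 1523 (6.86%) lower in GFP+ cells. With each array centred on its median, which moved the median change of all probe sets from 0.09 to 0.33, the split was 1169 higher and 1211 lower, so directions of small changes are relative to the scaling. Without vehicle replicate 2 the count of higher probe sets was 786, and without the pairing of fractions 219 were higher and 979 lower. GFP+ and GFP- samples did not overlap for 184 probe sets (0.829%) that were higher and 868 (3.91%) that were lower. With the values as deposited and all pools, odorant receptors made up most of the higher calls, 364 of 501. They did not with each array centred (429 of 1169) or without vehicle replicate 2 (387 of 786). Among the 21111 probe sets outside odorant and trace amine receptors, 132 (0.625%) were higher and 1350 (6.39%) lower, as deposited and with all pools.

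S100a5 lies in a cluster of S100 genes on chromosome 3, and other members of the family are shown beside it. Of 16 measured S100 genes, S100a5 alone (6.25%) was called higher and 6 (37.5%) were called lower, beside 2.26% and 6.86% of all probe sets. S100a8 and S100a9 form calprotectin, the calcium-binding complex of neutrophil cytosol. S100a8 measured 6.10, 6.21, 6.49, 7.57 and 6.54 in GFP+ and 18.43, 16.30, 17.98, 17.65 and 16.25 in GFP- samples. Its change was -10.74 (SE 0.38, adjusted p = 1.08e-09 by limma). S100a9 changed by -9.89 and S100a11, which binds annexins, by -7.35, both with no overlap. S100a6, S100a10 and S100a4 changed by -2.02, -1.52 and -1.16, and the first 2, with GFP+ means at background, were at least 3.32-fold and 1.77-fold lower. The call of S100a10 was lost without vehicle replicate 5 (-1.31), and that of S100a4 without vehicle replicate 1 (-0.89), 3 (-0.99), 4 (-1.22) or 5 (-1.24) as well as odor replicate 3 or 4. The other 9 were not called, and 7 of them were at background in both fractions: S100a1 (-0.63), S100a14 (-0.33), S100a16 (0.13), S100b (0.16), S100g (0.21), S100a2 (0.31) and S100a3 (0.38). S100z (0.27) and S100a13 (0.31) were above it. The median of the 16 was -0.10, and 0.14 with each array centred.

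The 250 bases before 1 annotated start of S100a5 and of S100a8 are shown because these genes of 1 cluster, with RefSeq spans at chr3:90606480-90611784 and chr3:90669071-90670034, moved furthest apart within the family. The sequences are from RefSeq on build GRCm38.p6, plus strand, 5′ to 3′, at chr3:90608272-90608521 for S100a5 and chr3:90668821-90669070 for S100a8. The S100a5 start used in the table lies inside the gene's full span, and the S100a8 window ends where its span begins. Capitals mark a match to GAGGAAGT on the opposite strand, a form of the site bound by the myeloid factor PU.1. A match describes letters only.
S100a5: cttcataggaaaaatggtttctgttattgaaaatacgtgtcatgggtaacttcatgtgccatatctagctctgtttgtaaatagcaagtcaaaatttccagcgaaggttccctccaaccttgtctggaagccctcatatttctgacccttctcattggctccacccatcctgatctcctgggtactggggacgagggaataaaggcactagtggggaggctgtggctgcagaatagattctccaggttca
S100a8: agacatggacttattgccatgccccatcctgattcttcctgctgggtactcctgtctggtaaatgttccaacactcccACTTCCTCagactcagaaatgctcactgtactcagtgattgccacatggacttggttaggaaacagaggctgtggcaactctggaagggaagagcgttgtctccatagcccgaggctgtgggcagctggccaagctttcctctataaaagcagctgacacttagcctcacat
The S100a5 window held none of the motifs searched: PU.1 (GAGGAAGT), AP-1 (TGANTCA), the cyclic AMP response element (TGACGTCA), its TGACG core, an Ebf site (CCCNNGGG) and a homeodomain core (TAATTA), all on both strands. The TGACG core is contained in the full cyclic AMP response element. Over their 250 bases the windows were 43.2% identical with gaps allowed, a value that was not set beside unrelated windows and does not show similarity.

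With the values as deposited, few genes apart from receptors were higher in GFP+ cells and most changes were small. The 130 probe sets outside odorant and trace amine receptors and receptor pseudogenes included 117 with a gene symbol. Their median change was 0.95, 50 passed 2-fold and 2 passed 4-fold. Of the 117, 103 had the same sign in 5 of 5 pools, and in 10 the groups did not overlap. By contrast, among the 1209 lower genes with a symbol the median change was -1.77, 1062 passed 2-fold, 531 passed 4-fold and 130 passed 16-fold. Of the 1209, 679 had a GFP+ mean at background, 131 of them in both fractions. Counted against the background as a floor and leaving out those 131, 768 passed 2-fold, 386 passed 4-fold and 98 passed 16-fold.

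Outside odorant and trace amine receptors 3 probe sets rose over 16-fold, where 0 of the 117 higher genes with a symbol did. Probe sets without a symbol were not ranked. Among genes with a symbol, the highest outside the receptors was Fxyd2, the gamma subunit that modulates the sodium-potassium pump. It measured 10.90, 10.86, 9.29, 8.82 and 12.06 in GFP+ and 6.76, 6.74, 6.44, 6.66 and 7.85 in GFP- samples. The GFP- samples sat above background and the groups did not overlap, giving a change of 3.49 (SE 0.36, adjusted p = 2.11e-05 by limma), 11.3-fold. Pcp4l1, a relative of the calmodulin-binding peptide Pcp4, measured 14.51, 14.03, 14.51, 14.10 and 15.38 in GFP+ and 11.38, 12.94, 11.44, 12.93 and 13.26 in GFP- samples. Every GFP+ sample was above every GFP- sample, with a change of 2.12 (SE 0.32, adjusted p = 0.00053 by limma). Lrrc3b, a leucine-rich repeat membrane protein, changed by 1.94 (SE 0.42, adjusted p = 0.00744 by limma), with a GFP- spread from 8.56 in replicate 1 to 13.61 in replicate 4 that overlapped the GFP+ range of 12.54 to 14.39.

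Smaller rises followed. Ptprn, a transmembrane protein of dense-core vesicles, measured 8.65, 8.71, 9.27, 9.10 and 9.75 in GFP+ and 7.07, 7.60, 6.94, 7.33 and 8.26 in GFP- samples, with no overlap. Its change was 1.65 (SE 0.22, adjusted p = 0.000208 by limma). Syngr1, a synaptic vesicle protein, rose by 1.60, and the patched-domain protein Ptchd1 by 1.62. Pcdh8, an activity-linked protocadherin, rose by 1.47. Nell2, a secreted glycoprotein known as an axon guidance ligand, rose by 1.52 from a GFP- mean of 5.73 to 7.25. Adam28, a membrane metalloprotease, rose by 1.53, with 13.16 to 14.25 in GFP+ against 11.78 to 12.76 in GFP- samples. Etv5, an ETS transcription factor induced by receptor tyrosine kinase signals, rose by 1.62. Without the pairing of fractions, limma did not call Lrrc3b, Syngr1, Ptchd1, Pcdh8 or Etv5. A receptor pseudogene, Olfr911-ps1, was also among the 15 largest rises, at 2.50 (SE 0.33), above Pcp4l1 and Lrrc3b.

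The remaining 4 of the 15 largest rises depended on single pools. Sema7a, a membrane-anchored semaphorin linked to activity-dependent synapse formation, changed by 1.83 (SE 0.53, adjusted p = 0.0481 by limma), with GFP- replicate 1 at 7.88 and the other GFP- samples from 11.56 to 13.45. Without vehicle replicate 1 its change was 0.97, still called. Its call was lost without vehicle replicate 3 (1.81), 4 (2.09) or 5 (2.12) and without any 1 odor pool (1.83). Cidea, a lipid droplet protein, changed by 1.49, and its call was lost without vehicle replicate 3 (1.25) or 5 (1.29). Cdr1, a gene first described as a cerebellar autoantigen, changed by 1.45, a call lost without vehicle replicate 2 (1.17), 3 (1.17) or 4 (1.50). Scn4b, a sodium channel beta subunit, changed by 1.40, a call lost without vehicle replicate 1 (0.92), 3 (1.15) or 5 (1.58) and without any 1 odor pool (1.40).

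Lists of neuronal genes had few calls, and their medians depended on vehicle replicate 1. Without that pool the median was 0.16 for transduction (0.45 with it), 0.17 for mature neuron genes (0.51), 0.17 for presynaptic genes (0.43) and 0.24 for cilia (0.57). It was -0.34 for regulators of receptor choice (0.11), -0.10 for axon guidance (0.36) and -0.27 for zone genes (0.26). In odorant transduction, from the G protein Gnal and the cyclase Adcy3 to the channel Cnga2 and the chloride channel Ano2, 0 of 10 genes were called by limma, 2 were higher at an unadjusted p under 0.05, and 1 was called higher with quantile normalization or centring. Their median was 0.45, with Ano2 at 0.83, the Golf chaperone Ric8b at 0.59 and Cnga2 at 0.51, which were 0.46, 0.21 and 0.38 without vehicle replicate 1. Of 14 genes that end or adapt the response, 1 (7.14%) was called higher and 2 (14.3%) lower, beside 2.26% and 6.86% of all probe sets. Rgs7, a G protein accelerator of neurons, rose by 1.33 (SE 0.27), and 2 fell. These were Rgs2 (at least 5.41-fold lower), another accelerator and also a gene of white blood cells, and Grk3 (-1.03), a receptor kinase that was at background in both fractions and lost its call without the pairing. Ckb (1.22, or 0.51 without vehicle replicate 1) and Pde1c (0.98, or 0.59) were not called, and without vehicle replicate 2 the list had 2 higher.

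Genes of mature neurons and of receptor trafficking had a median of 0.51, and 1 of 11 was called (9.09% lower, beside 6.86% of all probe sets). That gene, Calb2 (calretinin), fell. It measured 11.55, 10.45, 11.82, 11.98 and 12.77 in GFP+ and 13.71, 16.63, 16.07, 16.51 and 16.45 in GFP- samples. The groups did not overlap, and the change was -4.16 (SE 0.40, adjusted p = 1.19e-05 by limma), while GFP- replicate 1 stood below the other GFP- samples. The vesicular glutamate transporter Slc17a6 (0.88, or 0.27 without vehicle replicate 1) and the receptor chaperone Rtp2 (0.87, or 0.47) were not called, and 1 gene of this list was called higher without vehicle replicate 2.

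Among regulators of receptor choice 1 of 19 was called, a share of 5.26% lower beside 6.86% of all probe sets, and their median was 0.11 (-0.01 with quantile normalization). The called gene was Lbr, the lamin B receptor, whose loss from the nuclear envelope accompanies the gathering of heterochromatin in these neurons. It measured 10.00, 10.21, 9.26, 9.71 and 10.87 in GFP+ and 11.57, 12.55, 11.99, 12.23 and 12.59 in GFP- samples, a change of -2.18 (SE 0.21, adjusted p = 1.32e-05 by limma) with no overlap. Mean levels of pan-leukocyte genes also differed, at 5.48 to 6.11 in GFP+ and 9.59 to 11.35 in GFP- samples. The part of white blood cells in the fall of Lbr was not tested. Emx2 (0.63, or 0.15 without vehicle replicate 1) and Atf5 (0.53, or 0.21), both needed for receptor expression, were not called. Without vehicle replicate 1 the list had 2 genes lower.

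Of 12 genes linked to neuronal activity, 4 (33.3%) were called higher, beside 2.26% of all probe sets. They were S100a5, whose reporter made the sort, and Pcp4l1, Lrrc3b and Sema7a. The share is a description only. The sort fixed the direction of S100a5, and the list was chosen with earlier results of these data known. At an unadjusted p under 0.05, 5 of the list were higher and 1 lower, and changes ran from -0.85 to 2.12. Kirrel2, an adhesion molecule of active axons, had a change of 1.57 (SE 0.69, adjusted p = 0.25 by limma) that was negative in pool 2 (10.89 against 12.21). The activity list's median was 0.19 (-0.06 in odor pools), and 2 were called on leaving out vehicle replicate 3 or 5, or odor replicate 1 or 3. Of 5 genes listed for inactive neurons, 1 was called and it was higher: Epha5 (0.94), an ephrin receptor, a call lost without vehicle replicate 1 (0.78) or 4 (0.81). Among 29 axon guidance genes only Sema7a and Epha5 were called, the median was 0.36, and counts of higher genes ran from 0 without vehicle replicate 4 to 5 without vehicle replicate 2. Epithelial zone genes (0 of 10, median 0.26), presynaptic genes (0 of 24, median 0.43) and genes of neuronal cilia (0 of 22, median 0.57) had no calls by limma, where 1, 5 and 8 were higher at an unadjusted p under 0.05. Without vehicle replicate 2 there were 3 presynaptic and 2 cilia genes called higher, and without vehicle replicate 1 there were 1 zone gene lower and 1 cilia gene higher.

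**Figure D2:**
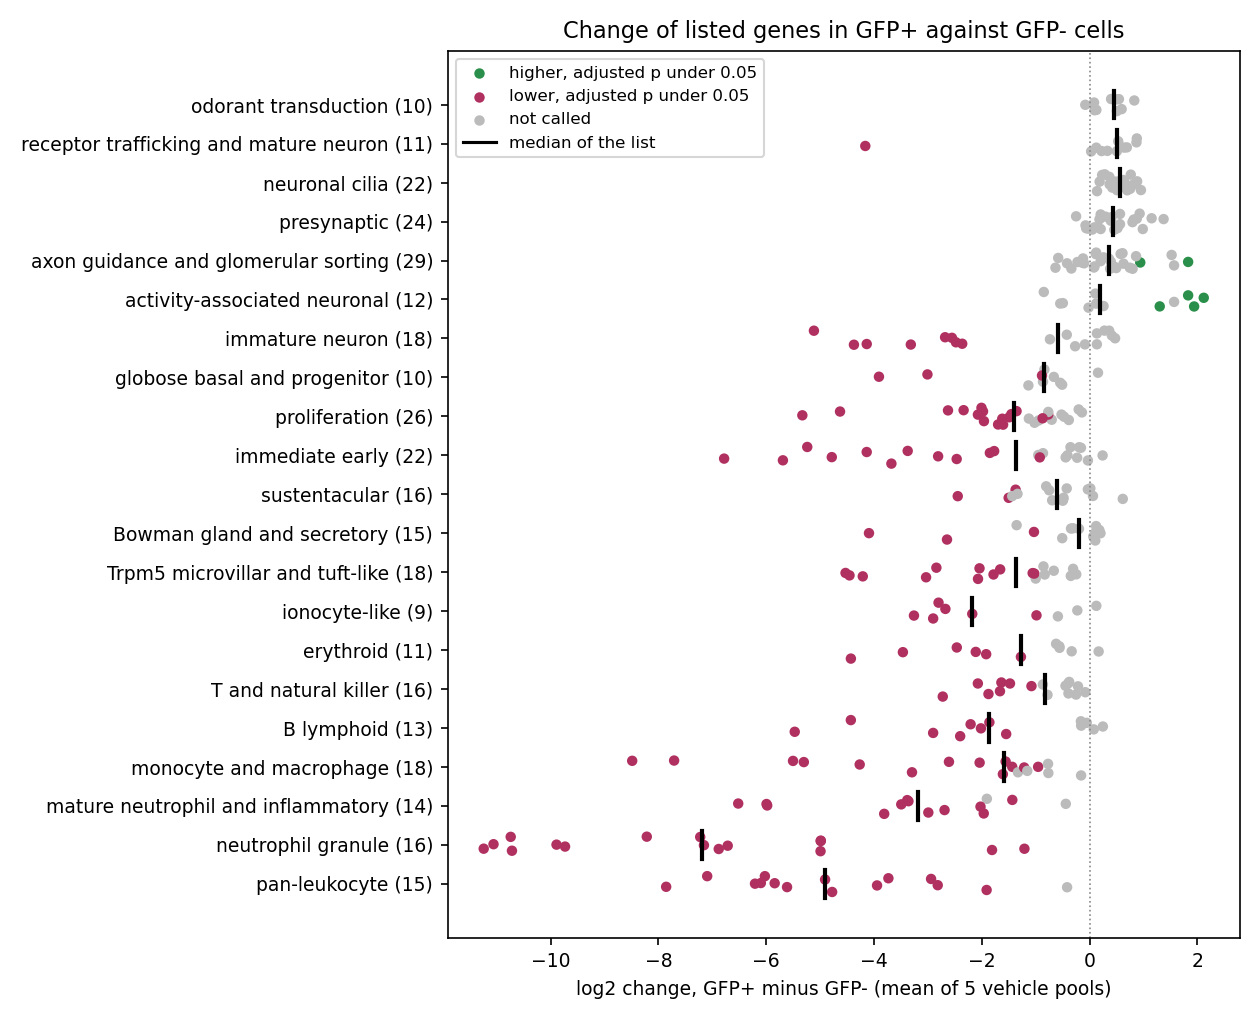
Log2 change in GFP+ against GFP- cells of each measured member of 21 gene lists, with the number measured in brackets, the list median as a black bar, and colours for calls by limma at an adjusted p under 0.05. Neuronal lists at the top lie around 0 to 1, and the lists of white blood cells at the bottom reach to -11.24 (Lcn2).

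Odorant receptors were divided in both directions. Of 1080 measured, 364 were higher (33.7%) and 170 lower (15.7%), beside 2.26% and 6.86% of all probe sets, and the median of all 1080 changes was 0.51. Without the pairing 199 were higher. Only 474 receptors (43.9%) stayed within 2-fold, against 93.1% of the other probe sets. Rises over 4-fold were seen for 192 receptors and for 8 of the 21111 probe sets outside both receptor families, and falls over 4-fold for 126 and 584. The fractions did not overlap for 147 of the 364 higher and 98 of the 170 lower receptors. The higher ones had a median change of 2.05, and the GFP- mean of 31 was at background. Among the lower ones the median was -2.62, and 70 had a GFP+ mean at background, so that their fitted changes are not bounds. With values below background raised to it the 2 medians were 2.01 and -2.29. Receptors of near-identical sequence can share signal on an array, and the values of such receptors are uncertain.

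**Figure D3:**
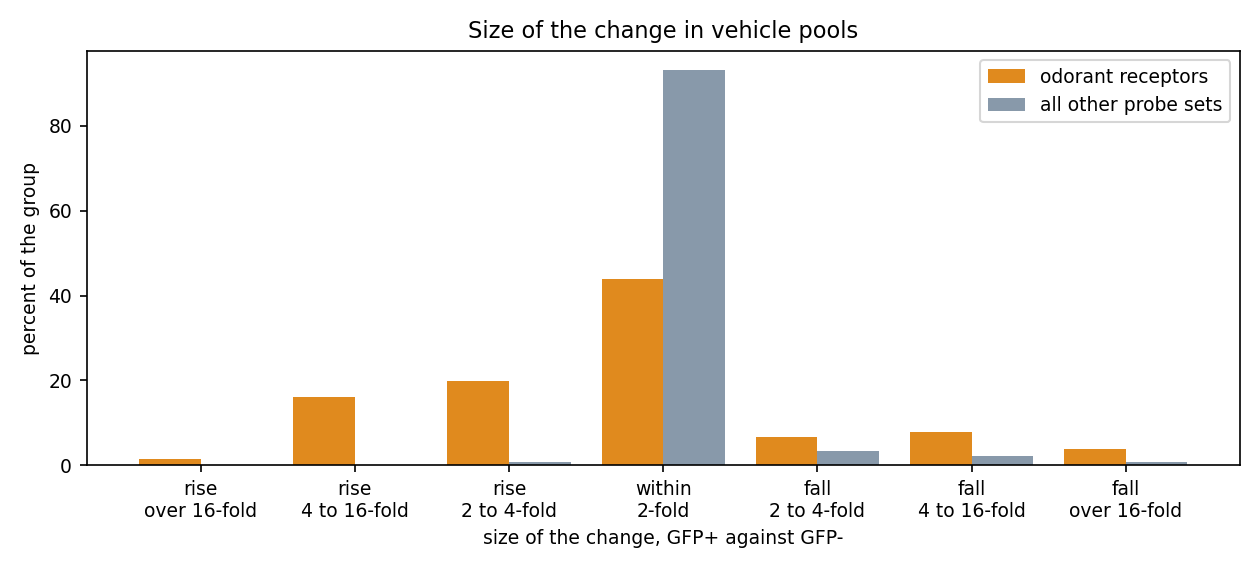
Percent of 1080 odorant receptors and of all other probe sets in each class of change, GFP+ against GFP-, in vehicle pools. Within 2-fold lie 43.9% of receptors and 93.1% of other probe sets, and receptors fill both tails.

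At the ends of this distribution stood Olfr110 and Olfr1507. Olfr110 measured 12.31, 11.81, 12.82, 11.78 and 13.09 in GFP+ and 7.67, 6.61, 5.48, 6.97 and 7.39 in GFP- samples, a 46.4-fold difference with no overlap. Olfr1507, also known as MOR28, measured 6.13, 7.29, 5.14, 5.21 and 5.24 in GFP+ and 12.98, 14.97, 12.88, 13.27 and 13.97 in GFP- samples, so that its GFP+ values lay about the background level. Per pool, the number of receptors with a positive difference was 742, 589, 789, 563 and 676, and 380 receptors were positive in all 5 pools and 178 negative in all 5.

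Both directions occurred on 15 of the 17 chromosomes with receptors. The share called higher was 52.8% of 36 on chromosome 16 and 51.3% of 39 on chromosome 14, with 11.1% and 7.69% lower. On chromosome 6, 11.1% of 27 were higher and 29.6% lower, and on chromosome 10, 18.5% of 65 and 24.6%. The 2 largest sets were chromosome 2 with 36.5% of 282 higher and 16.3% lower, and chromosome 7 with 32.6% of 230 and 9.57%. Class I receptors, the fish-like class, had 24.2% higher and 7.5% lower among 120, and class II 35.1% and 16.6% among 941. These shares were not tested against each other, as receptors of a cluster share sequence.

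**Figure D4:**
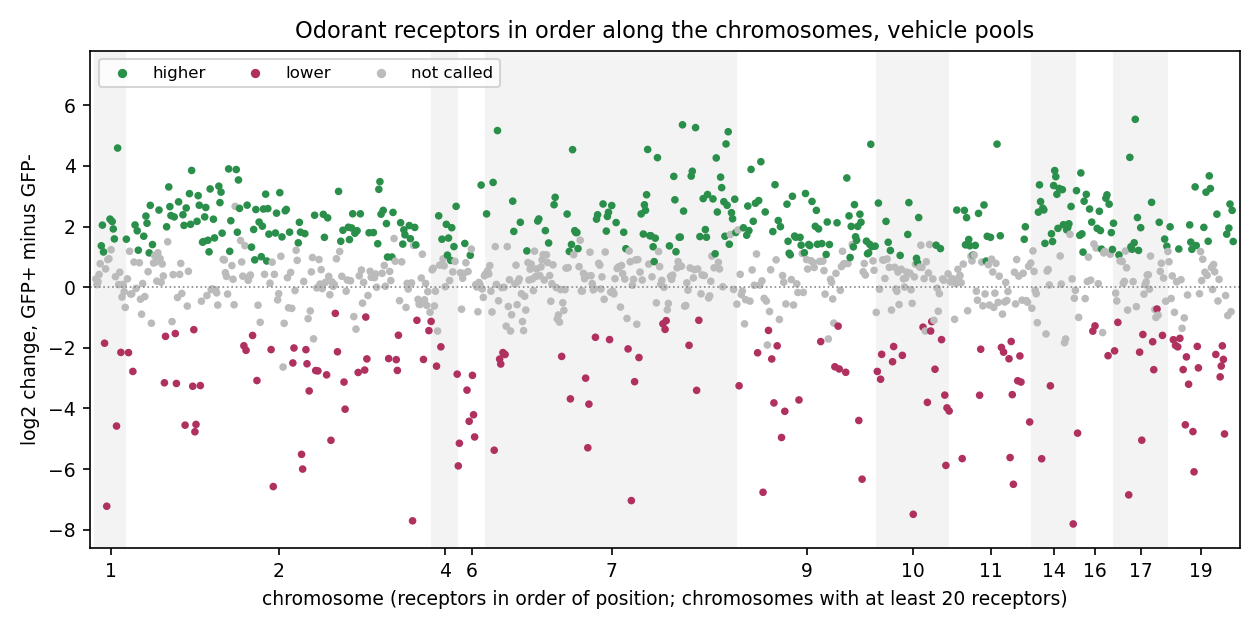
Log2 change of each odorant receptor in GFP+ against GFP- cells, in order of position on the 12 chromosomes with at least 20 receptors, coloured by call. Green (higher) and red (lower) points are mixed along each chromosome.

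Receptors of 1 sequence family also split. The older family names sorted 1061 receptors into 222 families, of which 28 had at least 10 members, and 23 of these held calls in both directions. Family 253 had 8 of 10 higher and none lower, family 106 had 10 of 13 higher and 1 lower, and family 283 had 8 of 12 higher and none lower. On the other side were family 225, with 7 of 11 lower and 1 higher, and family 135, with 8 of 17 lower and 1 higher. Among all pairs of called receptors 43.5% were called in opposite directions, and among pairs of 1 family 36.4%. Of 258 next neighbours within 100 kb where both were called, 66 (25.6%) were opposite: 25% where both were of 1 family and 26.5% where they were not. These are descriptions, as pairs share genes and neighbours can share signal.

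Some neighbours lay at opposite ends. On chromosome 14, Olfr727 measured 15.63, 16.14, 15.35, 14.54 and 15.55 in GFP+ and 11.80, 13.62, 11.38, 12.70 and 13.60 in GFP- samples, and Olfr729 rose alike (2.82 and 2.61). Between them, Olfr728 measured 5.42, 5.36, 5.30, 5.26 and 6.24 in GFP+ and 11.13, 11.44, 9.87, 11.06 and 12.39 in GFP- samples. It was at least 45.6-fold lower, while genes 13149 and 8199 bases away were higher. On chromosome 17, Olfr99 (at least 80.4-fold lower) and Olfr101 (4.28) were 19945 bases apart, and on chromosome 7, Olfr494 (at least 24.8-fold higher) and Olfr495 (at least 5.75-fold lower) were 27630 bases apart.

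Opposite neighbours were also found with nearly the same sequence before their RefSeq spans. Among 730 neighbour pairs with both windows in the RefSeq table the median identity of the 250 bases was 48.8%. Gaps were allowed and unrelated windows were not compared, so a median at this level does not show similarity. With over 70% identity, 5 of 17 pairs where both were called went in opposite directions (29.4%), and with less, 41 of 172 (23.8%). The opposite pair with the most similar windows was Olfr611 and Olfr612 on chromosome 7, 20850 bases apart and 96% identical. The spans of both receptors are 972 bases, a multiple of 3, as 657 of the 921 receptors with a window had short spans (up to 1100 bases) that are multiples of 3. The windows of such receptors lie before a coding sequence and are not shown to be promoters. Both windows are shown because the receptors differ so much in change: build GRCm38.p6, minus strand, 5′ to 3′, at chr7:103518383-103518632 for Olfr611 and chr7:103539233-103539482 for Olfr612. Capitals mark the 9 bases in each that have no equal partner when the windows are aligned.
Olfr611: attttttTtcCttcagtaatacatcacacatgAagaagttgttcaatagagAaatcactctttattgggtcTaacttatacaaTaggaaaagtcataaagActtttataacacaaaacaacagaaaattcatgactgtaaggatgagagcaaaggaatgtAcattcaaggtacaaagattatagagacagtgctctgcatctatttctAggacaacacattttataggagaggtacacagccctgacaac
Olfr612: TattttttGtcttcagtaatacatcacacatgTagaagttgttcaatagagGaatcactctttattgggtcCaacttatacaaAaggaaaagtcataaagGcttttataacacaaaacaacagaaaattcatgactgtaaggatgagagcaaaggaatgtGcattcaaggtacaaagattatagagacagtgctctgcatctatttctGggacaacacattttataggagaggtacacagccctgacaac
Olfr611 measured 5.73, 5.66, 5.40, 5.14 and 6.95 in GFP+ and 9.46, 10.11, 7.23, 9.66 and 10.85 in GFP- samples. Olfr612 measured 9.39, 8.72, 8.34, 8.34 and 11.41 in GFP+ and 7.17, 7.88, 7.04, 7.77 and 9.30 in GFP- samples. Olfr611 fell with no overlap (-3.69, SE 0.37, adjusted p = 1.64e-05 by limma), and Olfr612 rose in each pool (1.41, SE 0.30, adjusted p = 0.00768 by limma). The Olfr612 groups overlapped, and its call was lost without the pairing and without both pools numbered 5 (1.23). The next opposite pairs were Olfr113 (1.21, a call lost without vehicle replicate 3, at 0.93, and without the pairing) with Olfr114 (at least 3.58-fold lower) at 84% and Olfr875 (at least 3.28-fold lower) with Olfr876 (2.20) at 80.4%. Pairs at the other end included Olfr1354 (-3.04) and Olfr8 (at least 3.45-fold lower), 99.6% identical and both lower.

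The receptor windows were searched for the same motifs, and a gene counted if any of its RefSeq windows held the motif. The homeodomain core TAATTA, the binding core of Lhx2 and Emx2, was found in 17.5% of 315 higher, 20.1% of 139 lower and 17.8% of 467 uncalled receptors with a window, against 5.01% of the 15691 measured genes with one. The Ebf site CCCNNGGG was found in 2.54%, 2.88% and 2.57%, against 15.7% of measured genes. The sets were not matched for base composition or for windows per gene, so these shares do not show binding.

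Trace amine receptors, which detect volatile amines, were called in both directions. Of 15 measured, including Taar1, which is not an olfactory receptor, 5 (33.3%) were higher and 3 (20%) lower, beside 2.26% and 6.86% of all probe sets. Their median was 0.35 (0.07 with values raised to background). Taar4 measured 10.04, 10.79, 9.17, 9.10 and 12.42 in GFP+ and 6.35, 6.66, 5.14, 7.25 and 8.85 in GFP- samples, a rise of 3.45 (SE 0.36, adjusted p = 2.21e-05 by limma) with no overlap. Taar9 rose by 2.51 (SE 0.44), a call lost without the pairing. Taar3 changed by 2.03, a call lost without vehicle replicate 1 (1.44), 3 (1.57) or 4 (2.24) as well as odor replicate 2, 3, 4 or 5 (2.03). Taar2 changed by -2.60 (at least 4.85-fold lower), a call lost without vehicle replicate 2 (-2.30), 3 (-2.79), 4 (-2.68) or 5 (-2.14). Without vehicle replicate 5 the list had 1 gene lower, and without the pairing 1 higher and 0 lower by limma. Of 319 vomeronasal receptors, which belong to another organ, 276 were at background in both fractions. Only 1 (0.313%) was called higher, below the 2.26% of all probe sets. It was Vmn2r3 (0.92, at background in both), a call lost without vehicle replicate 2 (0.90), 4 (0.86) or 5 (0.82) as well as odor replicate 3 (0.92). The number of vomeronasal receptors called ran up to 10 without vehicle replicate 1 and to 13 with centring.

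Many genes of white blood cells were lower in GFP+ cells. Over the leukocyte lists, 143 genes were measured. By limma 95 were lower and 0 higher, where 6.86% and 2.26% of all probe sets were. A GFP+ mean at background was found for 61 of the 95. At an unadjusted p under 0.05 the counts of lower and higher genes were 105 and 0. Spi1, which encodes PU.1, the factor that directs myeloid and B cell fates, measured 8.52, 8.89, 7.49, 8.31 and 7.68 in GFP+ and 16.45, 16.53, 16.02, 15.83 and 15.34 in GFP- samples. It was 232-fold lower in GFP+ cells (-7.86, SE 0.26, adjusted p = 6.51e-10 by limma), with the groups far apart. Of 15 pan-leukocyte genes 14 were lower, with a median of -4.91. They included the tetraspanin Cd37 (at least 48.4-fold) and the lysosomal protein Laptm5 (-6.10).

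Neutrophil genes were lower in nearly all cases, beside 6.86% of all probe sets. All 16 granule genes were lower, with a median of -7.19, among them Ngp (-11.06), Retnlg (at least 1287-fold) and Chil3 (-9.73). Ngp, a granule protein made by neutrophil precursors, measured 7.64, 6.40, 7.69, 8.06 and 7.31 in GFP+ and 18.61, 18.75, 18.64, 19.18 and 17.21 in GFP- samples. Mmp8, the neutrophil collagenase, was at least 236-fold lower. Of 14 genes of mature or inflammatory neutrophils 12 were lower, with a median of -3.18: the integrin Itgam (at least 52.8-fold), the receptors Csf3r (-5.99) and Cxcr2 (at least 12.0-fold), and the cytokine Il1b (at least 52.6-fold). Monocyte and macrophage genes were lower in 13 of 18 cases, with a median of -1.58, among them Ly6c2 (at least 196-fold), lysozyme Lyz2 (-7.71), Fcer1g (-5.50) and Ccr2 (at least 13.9-fold).

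Lymphoid, mast cell and red cell genes followed, again beside 6.86% of all probe sets that were lower. Of 13 B cell genes 8 were lower (median -1.86), with the antigen receptor component Cd79a at -5.47, Jchain at least 5.23-fold lower, Cd79b at least 2.94-fold and the precursor gene Vpreb3 at least 2.50-fold lower. Of 16 genes of T and natural killer cells 7 were lower (median -0.82), among them Il7r (-2.72) and Cd3e (at least 2.02-fold), and 10 of the 16 were at background in both fractions. Of 12 mast cell, basophil and eosinophil genes 5 were lower (median -0.79), with Prg2 at least 8.33-fold lower and Prss34 at -2.61. Of 11 erythroid genes 6 were lower (median -1.27): the carbonic anhydrase Car1 (at least 12.5-fold), the membrane proteins Rhag (at least 4.52-fold) and Slc4a1 (-2.46), and Alas2 (-2.11), the first enzyme of haem synthesis in red cells. Antigen presentation genes were lower in 11 of 16 cases (median -1.44), from B2m (-6.06) to the class II genes H2-Ab1 (-4.34) and H2-Aa (-3.72) and the class I gene H2-K1 (-3.70). With values below background raised to it, list medians were -6.76 for neutrophil granules, -2.49 for mature neutrophils, -1.27 for monocytes, -0.60 for B cells, -0.02 for T and natural killer cells, -0.06 for mast cells, -0.51 for erythroid and -0.96 for antigen presentation genes. Over all genes the median was then 0.07.

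The PU.1 motif GAGGAAGT was found in the windows of 9 of 79 leukocyte-list genes that were lower (11.4%). It was found in 69 of 982 other genes that were lower (7.03%, a set that contains the former), against 2.63% of measured genes with a window. These sets, too, were not matched for base composition or for windows per gene. The 15 largest falls outside the leukocyte lists and receptors, ordered by fitted change, began with Adgrg6 (at least 105-fold), an adhesion receptor, Ifitm2 (-7.50), an interferon-induced membrane protein, Anxa1 (at least 106-fold), S100a11 (-7.35), haptoglobin Hp (at least 69.3-fold) and fibronectin Fn1 (at least 56.8-fold). Chil4 (at least 32.0-fold), Plbd1 (at least 33.3-fold), Ifitm6 (at least 63.9-fold), Emp3 (-6.07), Ifitm3 (at least 35.3-fold), the oxidase subunit Ncf1 (-5.86), Mrgpra2b (at least 40.8-fold) and the nuclear body protein Sp100 (at least 37.6-fold) were among them, and Egr1 completed the 15. In the Ly6 family 5 of 9 were lower, among them Ly6e (-8.29) and Ly6c1 (at least 174-fold), and in the Ms4a family 6 of 18, among them Ms4a4c (at least 14.5-fold).

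Some genes of the younger neuronal lineage and many of dividing cells were lower in GFP+ cells. Of 18 immature neuron genes 8 (44.4%, median -0.58) were lower, beside 6.86% of all probe sets. Among them were the chemokine receptor Cxcr4 (at least 31.3-fold), the G protein subunit Gng8 (-4.37), the transcription factor Nhlh1 (at least 11-fold) and the cytoskeletal regulator Dpysl3 (-3.32). Gng8 measured 5.12, 6.19, 5.57, 5.60 and 5.87 in GFP+ and 7.55, 9.25, 10.42, 11.14 and 11.83 in GFP- samples, again with GFP- replicate 1 the lowest. Of 10 progenitor genes 3 (30%) were lower (median -0.85), among them Kit (at least 9.47-fold) and Tex15 (-3.01). The call of Pax6 (-0.88, or at least 1.17-fold lower), 1 of the 3, was lost without vehicle replicate 3 (-0.75), 4 (-0.86) or 5 (-0.77) as well as odor replicate 2, 4 or 5. Of 26 proliferation genes 16 were lower (median -1.40), and Mki67, the Ki-67 antigen of dividing cells, was at least 33.6-fold lower. Without the pairing 10 of the 26 were called. With values raised to background the medians of the progenitor and proliferation lists were -0.30 and -0.76. Kit, Cxcr4 and the proliferation genes are also known from blood precursors. Pan-leukocyte genes had a mean level per array of 5.48 to 6.11 in GFP+ and 9.59 to 11.35 in GFP- samples and erythroid genes of 5.26 to 6.40 and 6.29 to 8.75, and their part in these falls was not tested.

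Immediate early genes, which are transcribed within minutes of a stimulus, were lower in 12 of 22 cases (54.5%), beside 6.86% of all probe sets. Their median was -1.36, or -1.07 with values raised to background. Egr1 measured 6.23, 7.74, 7.96, 8.49 and 8.81 in GFP+ and 13.31, 15.10, 15.58, 14.60 and 14.56 in GFP- samples, a change of -6.78 (SE 0.28, adjusted p = 3.64e-09 by limma). Zfp36 (at least 40.4-fold), Fos (-5.24) and Egr2 (-4.78) followed. Fos was low in GFP- replicate 1 (7.19) and between 13.15 and 14.20 in the other 4, so the groups overlapped. Of 9 heat shock genes 3 (33.3%) were called lower (median -0.25, or 0.01 with values raised to background), Hspa1b (-2.93), Hspa1a (-2.31) and Dnajb1 (-0.94). The call of Dnajb1 was lost without vehicle replicate 1 (-0.96), 2 (-0.99), 3 (-0.66) or 4 (-0.95) as well as odor replicate 1, 2, 3 or 4 (-0.94), and without the pairing none of the 3 was called by limma. The leukocyte levels given above also differed between the fractions, and the part of white blood cells in the falls was not tested.

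Among other epithelial cells, genes of microvillar and ionocyte-like cells had most of the calls. Of 18 genes of Trpm5 microvillar and tuft-like cells 11 were lower (median -1.36, or -0.90 with values raised to background). Trpm5, a taste-type cation channel, measured 5.23, 5.68, 5.52, 5.19 and 5.20 in GFP+ and 9.39, 9.90, 10.26, 9.60 and 9.95 in GFP- samples, at least 17.9-fold lower with tight values in each group. Hepacam2 (-4.53) and Alox5 (at least 9.02-fold) followed. Of 9 genes of ionocyte-like cells 6 were lower (median -2.18, or -1.01 likewise), among them Coch (-3.26), the transcription factor Foxi1 (-2.90) and the chloride channel Cftr (-2.80). Of 15 Bowman gland genes 3 (20%) were lower, beside 6.86% of all probe sets: Sox9 (-4.09), Scgb1c1 (-2.65) and Bpifa1 (-1.03). The call of Bpifa1 was lost without vehicle replicate 3 (-0.82), 4 (-1.09) or 5 (-0.98). The gland list's median of -0.20 turned to 0.04 with centring.

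Sustentacular genes, which include many detoxification enzymes, were called lower in 3 of 16 cases (18.8%, median -0.60), beside 6.86% of all probe sets. These were Sult1c1 (-2.45), Cyp1a2 (-1.50) and Cyp2a4 (-1.37). Sult1c1 measured 7.83, 5.52, 6.76, 7.35 and 8.20 in GFP+ and 8.46, 9.56, 10.40, 8.18 and 11.29 in GFP- samples, with 1 GFP+ value above the lowest GFP- value. None of the 3 was called without vehicle replicate 3, when they were at -2.15, -1.42 and -1.29, and 1 was called without vehicle replicate 2 or 5. Horizontal basal markers (9 genes) and ensheathing glia markers (10 genes) were at background in both fractions, as were 10 of 14 endothelial and stromal genes. The single calls in the last 2 lists were Erbb3 (-1.07) and Pecam1 (-1.17, or at least 1.02-fold lower), shares of 10% and 7.14%. Both calls were lost without vehicle replicate 2 (-0.95 and -0.91) or 5 (-0.85 and -1.17). Erbb3 also lost its call without vehicle replicate 3 (-0.97) or any 1 odor pool, and Pecam1 without vehicle replicate 4 (-1.12). Of 10 ciliated cell genes 0 were called by limma (median 0.29), 1 was higher at an unadjusted p under 0.05, and 1 was called higher without vehicle replicate 2. Of 7 guanylyl cyclase D neuron genes 1 (14.3%) was lower, Pde2a (-2.46, a call lost without the pairing), and 5 were at background in both fractions.

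Of 60 cytosolic ribosomal protein genes 22 (36.7%) were lower, beside 6.86% of all probe sets (median -0.86, -0.62 with centring). Among them were Rplp0 (-1.87), Rps16 (-1.74) and Rps9 (-1.72). The count was 13 without vehicle replicate 3 or 4, 14 with centring and 5 without the pairing. Mean levels of these genes were 11.24, 11.43, 11.05, 11.08 and 12.39 in GFP+ and 12.79, 11.88, 12.35, 11.86 and 12.67 in GFP- samples, so that pool 5 differed least and the groups overlapped through it. Of 77 oxidative phosphorylation genes 1 (1.30%) was called higher, Cyc1 (0.92), beside 2.26% of all probe sets. That call was lost without vehicle replicate 1 (0.83), 3 (0.88) or 5 (0.79), while 2 genes were called without vehicle replicate 2 or 4. Their median was 0.24. Of 20 clustered protocadherins, all of the beta cluster, 1 (5%) was called higher (median 0.54), with counts from 0 without vehicle replicate 1, 4 or 5 to 5 without vehicle replicate 2. Of 36 potassium channel and 23 sodium and calcium channel genes, 0 were called by limma (4 and 0 higher at an unadjusted p under 0.05), and 21 and 11 were at background in both fractions. Of 12 interferon response genes 1 (8.33%) was called lower, beside 6.86% of all probe sets. It was Bst2 (-1.29), a call lost without vehicle replicate 2 (-1.20), 3 (-1.30), 4 (-1.24) or 5 (-1.09).

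**Figure D5:**
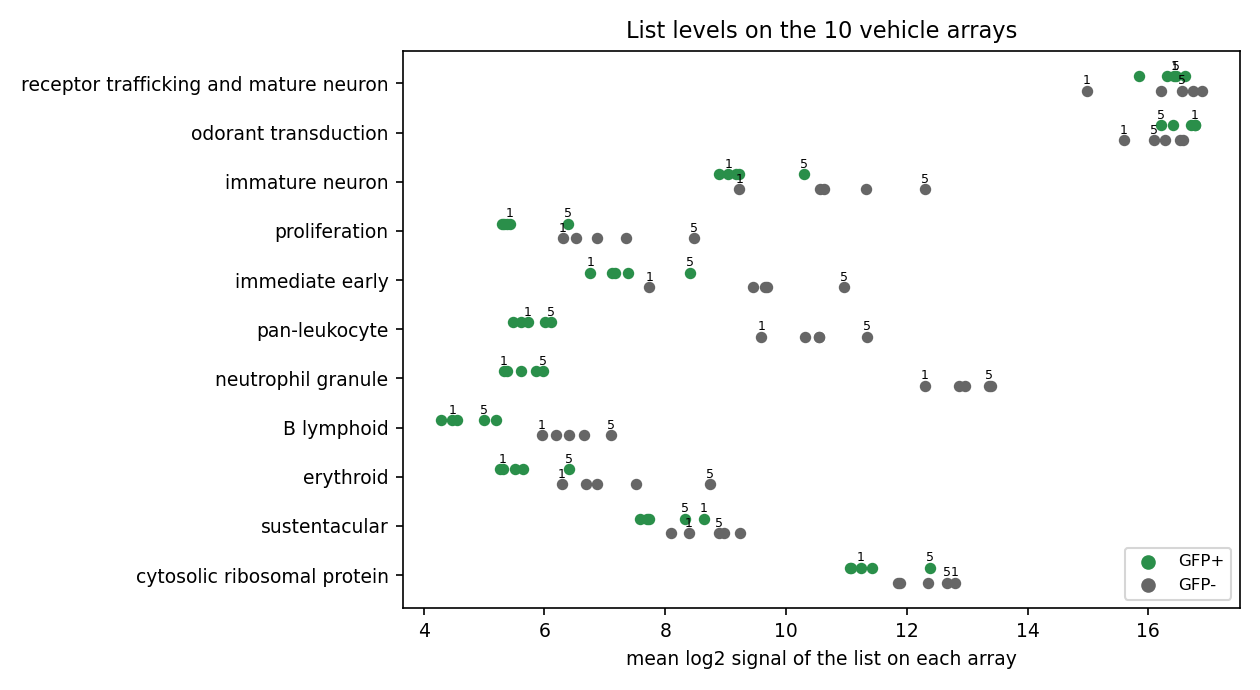
Mean log2 signal of 11 gene lists on each of the 10 vehicle arrays, GFP+ in green and GFP- in grey, with replicates 1 and 5 numbered. Pan-leukocyte genes lie at 5.48 to 6.11 in GFP+ and 9.59 to 11.35 in GFP- samples, while mature neuron genes overlap, at 15.85 to 16.61 and 14.98 to 16.88.

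The same sort in the 5 odor pools, which came from other mice but enter the same estimate of the spread, is given beside the vehicle pools. Of the 2024 called probe sets, 2014 had the same sign there, and 0 of 22206 had a difference between odor and vehicle pools called by limma (269 at an unadjusted p under 0.05, or 1.21%). Of the 117 higher non-receptor genes, 113 had the same sign and 33 were also called. Fxyd2 changed by 3.66 there against 3.49, Pcp4l1 by 1.79 against 2.12, Ptprn by 1.46 against 1.65 and Calb2 by -4.27 against -4.16. Other genes differed more in value, with S100a5 at 2.15 against 1.30, Cdr1 at 0.66 against 1.45, Cyc1 at 0.26 against 0.92, Scgb1c1 at -1.31 against -2.65 and Rps9 at -0.76 against -1.72. The ribosomal median was -0.46 against -0.86. Ptchd1, at 1.62 in vehicle pools, was at 0.68 and not called (adjusted p = 0.33 by limma), a difference that was itself not called. Of the 364 higher and 170 lower receptors, 301 and 158 were called in odor pools too.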

How the data were processed

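Sorted cells of 10 vehicle samples (5 pools, 2 fractions) were compared, with 10 odor samples in the same fit. Biotinylated cRNA from 50 to 100 ng of RNA was hybridised to Clariom S mouse arrays, per the labels' protocols. As deposited, each probe set has a log2 signal, made with Affymetrix Expression Console per the submitters' processing notes. Its version and its normalization are not given in the sources. They were used as deposited. The 6640 control rows of 28846 were left out, and no dim probe set was filtered. Of 22206 probe sets, 19572 had 1 gene symbol, all matched by Entrez ID to RefSeq (GRCm38.p6), and 2634 had none. Lists used 1 probe set per gene, that with the highest mean over vehicle samples.

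Differences GFP+ minus GFP- within pools were fitted with limma 3.58.1 in R 4.3.3 (lmFit, eBayes), with Benjamini-Hochberg adjustment over all 22206 at 0.05. The pairing comes from the labels: both fractions of a pool are from the same mice. The deviations of the 2 fractions from their group means correlated at -0.005, -0.32, 0.17, 0.10 and 0.80 in vehicle pools 1 to 5. Pools are separate mice. Simulated data with 200 changed probe sets were used to test the code.

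Named were S100a5, Omp and Lcn2; the 15 largest rises and 15 largest falls outside receptors and leukocyte lists, with the same sign in 5 of 5 pools; the 10 largest leukocyte falls; 5 receptors at either end; as many as 4 members of every list, by size; and all S100 genes. Members and lists were chosen with earlier results of these data known. A planned choice of receptor pairs by protein identity was not applied, as protein sequences were not used here. The neighbouring receptors, the pairs by identity of their upstream windows and some members of lists were chosen after their values were seen. Windows are the 250 bases before RefSeq starts, compared by edit distance. Alternatives were quantile normalization, centring each array, 2 filters on dim probe sets, an intensity trend, array weights, vehicle pools alone, no pairing, a term for or omission of pools numbered 5, and leaving out each pool and vehicle pools 1 and 2.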

Additional observations from a re-analysis of the deposited data

Results flagged for a closer look

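Some arrays stood apart from the other 4 of their fraction by more than Dixon's 95% critical value for single genes, which chance alone gives in about 1 in 20 groups. Both fractions of the 153 genes given by value were examined, so some of the values below arise by chance. The values below are log2 signals.

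GFP- replicate 1 was on the side of the GFP+ samples for Fos (7.19), Calb2 (13.7), Cd37 (8.53) and Sox9 (8.67), and it was also apart for S100a4 (8.21), Pde1c (13.6), Emx2 (11.8) and Vmn2r3 (3.83). GFP- replicate 5 was apart for Fxyd2 (7.85), S100a10 (8.62), S100a2 (5.67), Ngp (17.2), Prg2 (11.8), Sp100 (11.7) and Rps9 (13.1). GFP+ replicate 5 was apart for Cidea (12.4), Grk3 (4.94), Olfr728 (6.24), Fcer1g (7.27), Cyc1 (11.3), S100a1 (5.05), S100a2 (6.15) and S100a3 (6.47). Single genes in other arrays were Il7r in GFP+ replicate 1 (5.23) and Sox9 in GFP+ replicate 2 (7.29).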

How the results depend on the processing

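Both fractions of a pool come from the same mice, so the comparison was paired. Without the pairing (no replicate block), 219 probe sets were higher, 979 lower and 199 odorant receptors higher. With each array centred on its median 1169 probe sets were higher, and with vehicle pools alone in the fit 302. Leaving out 1 pool of 10 gave 354 to 786 higher and 1162 to 1717 lower probe sets, 289 to 387 higher and 138 to 189 lower receptors, and changes of 0.99 to 1.55 for S100a5, -0.021 (without vehicle replicate 1) to 0.38 for Omp and -11.56 to -10.73 for Lcn2. Vehicle replicate 2 gave the highest of these counts of higher probe sets. S100a5 was not called with quantile normalization (1.26), with vehicle pools alone (1.30), without both pools numbered 5 (1.31) or without vehicle replicates 1 and 2 (1.22). S100a14, which was not called, ran from -0.63 to 0.16 over these pools, turning to 0.16 without vehicle replicate 1 and to 0.25 without vehicle replicates 1 and 2. Of 153 genes given by value, 111 had the same direction and call under each of the 21 alternatives that held them. Signals near background and near the top of the range limit the sizes of changes, and the number of pools limits what can be called among small changes.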
